A study of Drosophila melanogaster with 46 samples.

Results

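Su(z)12 peaks without PSC are places in eye disc chromatin where a peak of the Polycomb protein Su(z)12 was listed and no peak of the Polycomb protein PSC overlapped it. They were selected on the positions of peaks in the authors' merged lists, which combine all replicates: a Su(z)12 peak on 1 of the 6 chromosome arms was kept where it shared not even 1 bp with a merged PSC peak. This gave 520 of the 2205 Su(z)12 peaks on the arms. The other 1685 overlapped a PSC peak and are called Su(z)12 peaks with PSC, and 4474 PSC peaks had no Su(z)12 peak. That no PSC peak was listed does not show that PSC was absent, since a peak is only listed when it passes the caller's threshold.

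Eye discs are the larval epithelia that form the adult eye and antenna. The series holds 46 samples of Drosophila melanogaster in 19 groups, and its subject is the Polycomb repressive complex 1 in development. ChIP-seq for Su(z)12 and for PSC was made from eye discs of L3 wandering larvae of the strain W1118 Oregon-R, with 2 replicates each and about 500 discs per replicate. RNA-seq was made from about 150 eye discs per replicate of the same stage. The groups were discs mutant for Pc (labelled Mutant_PcXT109_FRT2A, 2 replicates, control not named in the labels), discs with RNA interference (RNAi) against ph, whose protein Ph is a PRC1 subunit (4 replicates), and discs with RNAi against the pigment gene white (4 replicates). The FRT2A in the label is a recombination site on the chromosome arm, and no source used here says whether the discs were mosaics of mutant and other cells. Each RNAi group came from a cross whose driver the labels do not name. Nothing in the labels ties replicates to separate animals, so the p-values may rest on technical spread. All RNA came from whole discs, in which fewer cells of a type and less RNA per cell cannot be told apart.

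Polycomb proteins keep developmental genes silent. Polycomb repressive complex 2 (PRC2), to which Su(z)12 belongs, methylates a lysine in the tail of histone H3. Polycomb repressive complex 1 (PRC1), which contains PSC, Pc and Ph, can bind this methylated histone, compact chromatin and ubiquitinate histone H2A. In flies both complexes are drawn to Polycomb response elements, and the best known targets are the Hox genes, which give body segments their identity and lie in the Antennapedia and bithorax complexes on arm 3R.

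The Su(z)12 peaks without PSC were weaker and less often found again in single replicates than those with PSC. Fold here means the enrichment over local background that the authors' peak caller gave each peak. In the merged list it had a median of 1.85 (1.32 to 2.99) without PSC and a median of 2.05 with a maximum of 5.08 with PSC. The median −log10 q, the caller's strength of evidence, was 8.59 without PSC and 13.8 with PSC. The median width was 271 bp without PSC and 298 bp with PSC. These values belong to the lists that chose the peaks and describe them without a test. Among the peaks without PSC, 153 shared both fold and q with another.

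Of the 520 peaks without PSC, 88 (16.9%) overlapped a Su(z)12 peak in the lists of both replicates, against 722 (42.8%) of the peaks with PSC. A further 76 were found in replicate 1 alone and 96 in replicate 2 alone, against 408 and 144 of the peaks with PSC. In neither replicate list were 260 of the peaks without PSC, against 411 (24.4%) of those with PSC. These 260 were listed only after the replicates were merged. The PSC replicate lists gave few overlaps: 27 of the 520 peaks met a PSC peak of replicate 1 and 1 met a PSC peak of replicate 2, and 492 met none in any PSC list.

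**Figure D1:**
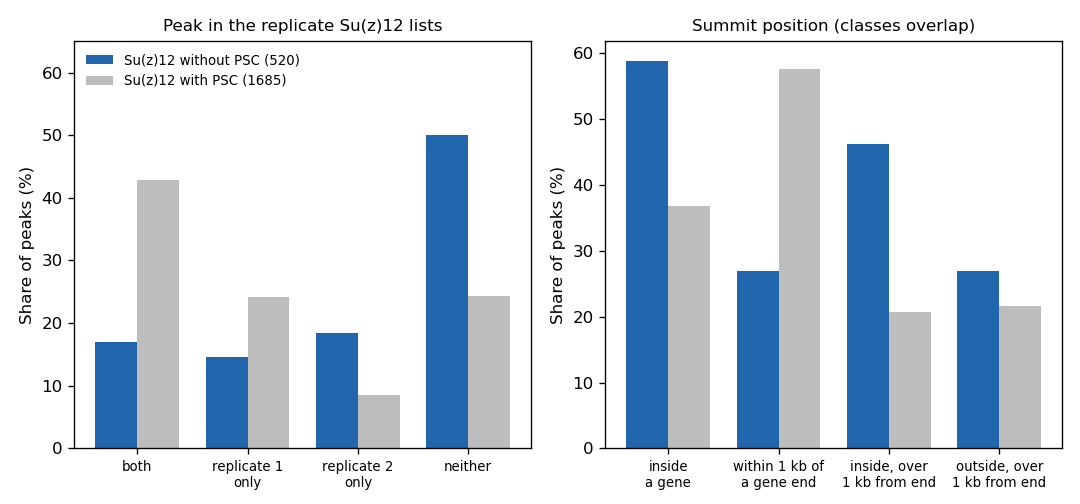
Left, share of Su(z)12 peaks (%) without PSC (blue, 520) and with PSC (grey, 1685) that overlapped a peak in both, 1 or neither replicate list. Right, share by summit position, in classes that overlap; 58.8% of peaks without PSC and 36.9% of those with PSC had the summit inside a gene.

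Of the 10 strongest peaks without PSC, 7 were found in both replicates. The strongest had its summit 53 bp outside vsg and overlapped the gene's end (3L, 9714126 to 9714377, dm6), with a fold of 2.99 in the merged list, 2.50 in replicate 1 and 3.70 in replicate 2. Its nearest PSC peak was 16872 bp away. The next lay inside CG9380 near the end of 2R (25251401 to 25252154), with 2.93 merged, 2.47 in replicate 1 and 4.49 in replicate 2, and a PSC peak stood only 722 bp away. So the first stood far from any listed PSC peak and the next beside one.

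A peak at Klp31E, a kinesin-like gene (2L, 10413736 to 10413991), had folds of 2.73 merged, 2.59 in replicate 1 and 3.62 in replicate 2. A peak inside Glut1, a glucose transporter gene (3L, 968230 to 968514), had 2.68 merged, 2.43 in replicate 1 and 3.28 in replicate 2, at 66312 bp from PSC. A peak inside CG8745 (3L, 13860044 to 13860344) had 2.53 merged, 2.57 in replicate 1 and 2.75 in replicate 2, at 78792 bp from PSC. A peak with its summit 1593 bp from CG33453 (2R, 19254677 to 19255262) had 2.57 merged, 2.13 in replicate 1 and 3.31 in replicate 2, with PSC only 26 bp away. All 4 stood in both replicate lists, some next to PSC and some far from it.

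The other 4 of the 10 strongest were missing from a Su(z)12 list or met PSC in 1 replicate. The peak at IA-2, a gene of the dense-core vesicle membrane (2L, 1006562 to 1006810, fold 2.68), was listed in replicate 1 alone, with 3.66. The peak inside CG34462 (3L, 8329080 to 8329372, fold 2.54) was listed in replicate 2 alone, with 3.88. The peak beside the ribosomal RNA gene pre-rRNA:CR45856 (X, 23283646 to 23284119, fold 2.75) was listed in replicate 1 alone and overlapped a PSC peak of replicate 1 with a fold of 2.61. The peak with its summit 9504 bp from TpnC41C, a troponin C gene (2R, 5055573 to 5055778, fold 2.74), was in both Su(z)12 lists, with 3.83 and 3.75, but also overlapped a PSC peak of replicate 1 with a fold of 2.72. These last 2 overlaps are those of the merged Su(z)12 peaks, whose bounds may differ from those of the replicate 1 peaks.

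Most Su(z)12 peaks without PSC had a PSC peak close by. The distance to the nearest merged PSC peak had a median of 1357 bp and quartiles of 530.75 and 4207 bp. It was at most 500 bp for 126 peaks, over 500 bp and at most 1000 bp for 78, and at most 5000 bp for 409 (78.7%). Only 77 peaks (14.8%) lay more than 10000 bp from PSC, a cutoff chosen after the distances were seen. The nearest Su(z)12 peak with PSC stood at a median distance of 1547 bp. At the boundary of the rule itself, the closest peaks without PSC stood 2 bp from PSC at the neural zinc-finger gene erm (2L, 1969933 to 1970307, fold 1.74) and 9 bp at lncRNA:CR45750 (3R, 16799165 to 16799704, fold 2.05). The peaks just outside the rule shared 28 bp with PSC at tbrd-2 (2R, 19264203 to 19264414, fold 1.99) and 72 bp at the Pax gene sv (4, 1103674 to 1103988, fold 1.62).

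**Figure D2:**
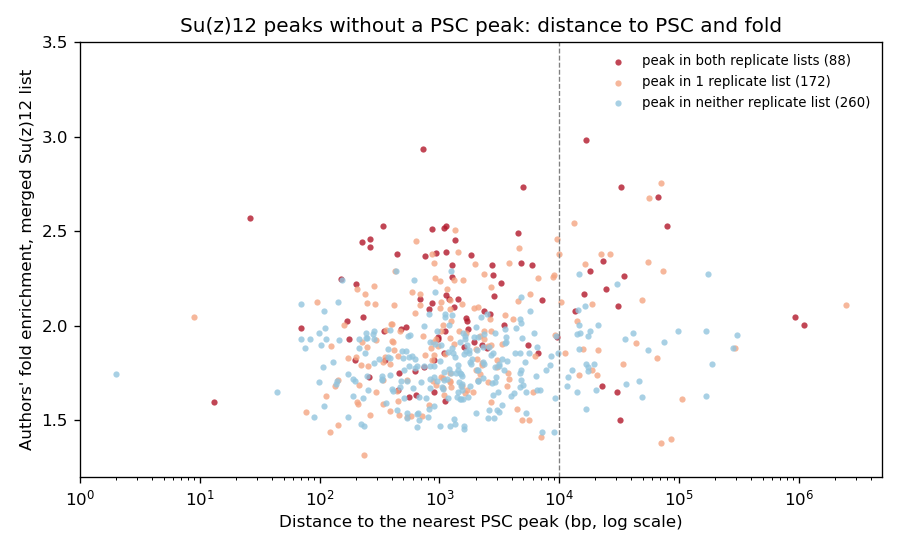
Each point is 1 of the 520 Su(z)12 peaks without PSC, by distance to the nearest merged PSC peak (bp, log scale) and the authors' fold in the merged list. Colours give its presence in both (88), 1 or neither (260) replicate list, and the dashed line marks 10000 bp, beyond which 77 peaks lie.

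Far peaks lay near gene ends more often than the nearer ones, and similar shares of both were found in both replicates. Of the 77 far peaks, 16 (20.8%) were in both replicate lists, against 72 of the 443 nearer ones (16.3%). The median fold was 1.95 for far peaks and 1.84 for nearer ones. A gene end lay within 1000 bp of the summit for 39 far peaks (50.6%), against 101 nearer ones (22.8%). Summits inside a gene were 45.5% of the far peaks and 61.2% of the nearer ones. All 202 peaks of the Hox complexes were among the nearer ones, and 81.7% of these 202 had the summit inside a gene. Outside the complexes the share was 44.3% of 318 peaks, far and nearer together. The far peaks were also scattered, with 71 nearest genes for 77 peaks, while the 443 nearer peaks had 173.

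The 3 farthest peaks lay in the pericentric part of 3R, nearest to the myosin gene Myo81F, at 2455194, 1106715 and 927905 bp from PSC. Of these, the first (from 93105) was listed in 1 replicate, and the peaks from 1441255 and from 1620124 in both. The other peaks more than 100000 bp from PSC, 8 of 11, included 1 at the axon guidance gene beat-Ia (173959 bp) and 2 at CG40006 (168443 and 169235 bp), none of these 3 found in a replicate list. The 2 peaks inside Myo81F were the only ones of the 11 in both replicate lists.

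Su(z)12 peaks without PSC sat inside genes and away from gene ends more often than peaks with PSC. The summit lay inside a gene for 306 of 520 peaks (58.8%, exact 95% interval 54.5 to 63.1, which covers counting error only and treats neighbouring peaks as separate). The share was 36.9% for peaks with PSC and 56.1% for PSC peaks without Su(z)12. A gene end within 1000 bp of the summit was found for 26.9% of the peaks without PSC and for 57.6% of those with PSC. The median distance to a gene end was 2957 bp without PSC and 541 bp with PSC. Summits inside a gene and over 1000 bp from its ends made up 46.2% without PSC and 20.8% with PSC. A long non-coding RNA was the nearest gene for 121 peaks without PSC (23.3%) and for 187 with PSC (11.1%). Inside the Hox complexes these shares were 37.1% without PSC and 35.9% with PSC, and outside them 14.5% and 9.06%.

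The difference in summits inside a gene was seen in each replicate taken alone. It was smaller both outside and inside the Hox complexes than over all peaks together. By the lists of replicate 1, 63.7% of 270 peaks without PSC and 36.9% of 1164 with PSC had their summit inside a gene. By the lists of replicate 2, the shares were 57.1% of 378 and 31.5% of 818. Outside the Hox complexes the shares were 44.3% of 318 peaks without PSC and 33.7% of 1557 with PSC. Inside the complexes they were 81.7% of 202 and 75.8% of 128. Outside the complexes a gene end lay within 1000 bp for 32.7% without PSC and 60.0% with PSC. No test was made, since peaks are not replicates and many share a gene.

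The peaks crowded into a few domains, above all the Hox complexes. Arm 3R held 274 of the 520 (52.7%), and 37.2% of its Su(z)12 peaks were without PSC. On the other arms this share ran from 9.82% on X (22 peaks) to 20.5% on 2R (89 peaks), with 15.4% on 2L (59), 18.2% on 3L (58) and 17.0% on chromosome 4 (18). Joined across gaps of at most 10000 bp, the peaks formed 229 runs, of which 172 were single peaks. The 16 runs of at least 5 peaks held 253 of them (48.7%). These limits were chosen after the data were seen.

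The bithorax complex, taken from Ubx to Abd-B with 10000 bp on either side (3R, 16646623 to 16982236), held 138 peaks without PSC and 66 with PSC. They were 26.5% of all peaks without PSC and 3.92% of all with PSC. By covered length the order was reversed, with 56158 bp under peaks without PSC and 79864 bp under peaks with PSC. The median width there was 338.5 bp without PSC and 1003 bp with PSC. No bithorax peak without PSC was farther than 6600 bp from a PSC peak, and 40 of the 138 were in both replicate lists while 50 were in neither. The Antennapedia complex (3R, 6651427 to 7009228) held 64 peaks without PSC, of which 8 were in both replicate lists, and 62 with PSC. They covered 22354 bp without PSC and 47742 bp with PSC. Together the complexes held 202 peaks without PSC (38.8%), all of them within 10000 bp of a PSC peak.

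The largest run (3R, 16766750 to 16902970) reached from the bxd region across abd-A to lncRNA:iab8, and held 74 peaks without PSC, 30 with PSC and 35 PSC peaks. The bxd RNA is transcribed from regulatory DNA of Ubx, and the iab-8 RNA from the interval between abd-A and Abd-B. In that run 27 of the 74 peaks were found in both replicates. A second run at Abd-B (3R, 16915701 to 16977743) had 30 peaks without PSC, and runs at Antp (6886145 to 6934558) and Ubx (16696423 to 16727164) had 19 and 18. The run with 20 peaks at CG9380 and Kr (2R, 25192727 to 25240816) lay near the end of arm 2R, and none of its peaks stood in both replicate lists. A run of 9 at pb, the Hox gene of the mouthparts, held 1 PSC peak alone.

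**Figure D3:**
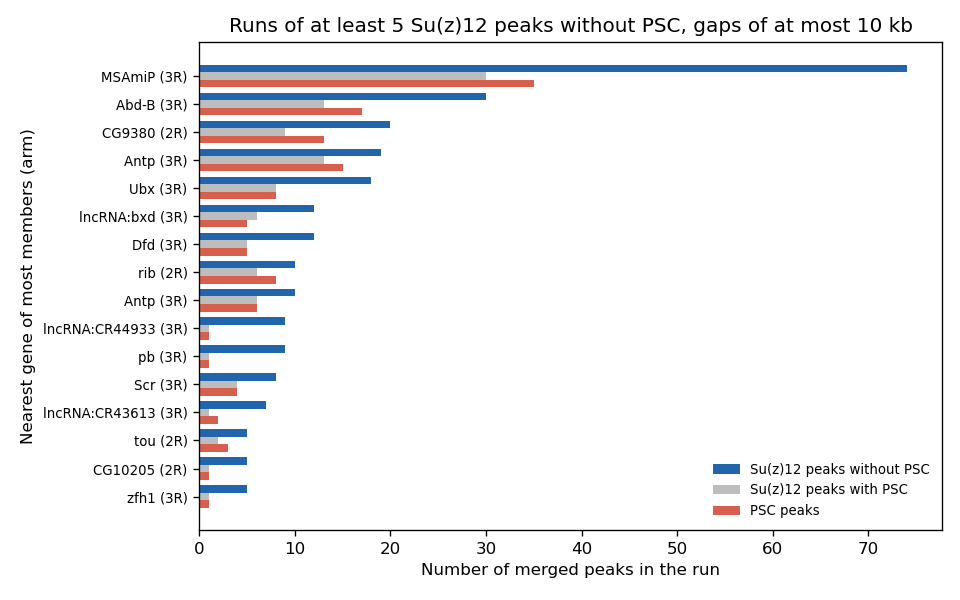
Number of merged peaks in each of the 16 runs of at least 5 Su(z)12 peaks without PSC (gaps of at most 10000 bp), named by the nearest gene of most of them. Blue bars are Su(z)12 peaks without PSC, grey bars Su(z)12 peaks with PSC and red bars PSC peaks; the top run has 74, 30 and 35.

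Single peaks at abd-A show how the runs were built. In the gene (3R, 16807214 to 16830049) lay 10 peaks without PSC, 264 to 4833 bp from the nearest PSC peak. The strongest (16814201 to 16815351) had a fold of 2.42 merged, 1.90 in replicate 1 and 3.13 in replicate 2. Peaks from 16807733, 16818468, 16819556 and 16828694 were also in both replicates, with merged folds of 2.38, 2.08, 2.00 and 1.76. The peaks from 16808149, 16817005 and 16824673 were in neither, at 1.83, 1.73 and 2.15 merged. Folds of reproduced and unreproduced peaks in this gene therefore overlapped.

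The nearest gene of a peak was taken as the gene that holds the summit or has the nearest end. The 520 peaks had 239 nearest genes, 190 of them protein-coding and 41 long non-coding, and 163 with 1 peak. The genes with the most peaks were lncRNA:iab8 (23), Abd-B (22), CG9380 (21), MSAmiP (19), Antp, lncRNA:bxd and Ubx (18 each), abd-A (10), and Dfd, Scr and lncRNA:CR44933 (9 each). Genes overlap here, and 72 summits lay in more than 1. Such a peak went to the gene with an end nearest to the summit. Both lncRNA:iab8 and MSAmiP cover 3R from 16831116 to 16896293, where their counts depend on this rule. A PSC peak in the gene or the 1000 bp around it was found for 152 of the 239 genes, and 125 were also the nearest gene of a Su(z)12 peak with PSC. For 87 genes with 110 peaks no PSC peak lay in the gene or that margin.

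Expression came from the authors' deposited tables, which give for each gene a log2 fold change with its standard error (SE) and an adjusted p of DESeq2, but no value per sample. The targeted genes moved as labelled. In the authors' deposited table for the Pc mutant, Pc fell by 1.64 ± 0.41 on the log2 scale (adjusted p = 0.00134). In the authors' deposited table for ph RNAi, the neighbouring copies ph-p and ph-d fell by 0.80 ± 0.04 and 0.66 ± 0.05 (adjusted p = 1.11e-88 and 6.89e-42). Psc rose by 1.59 ± 0.07 and Su(z)12 by 0.63 ± 0.04 in the authors' deposited table for ph RNAi, while neither passed the test for Pc (0.20 and 0.07 in the authors' deposited table). All 12 retinal determination genes were measured in both comparisons, as the tissue label calls for, with median mean counts of 2399 in the table for Pc and 3180 in that for ph. Of these 12, 8 were lower and 1 higher for Pc (median −0.78), and 10 lower and 1 higher for ph (median −2.04), in the authors' deposited tables. Markers of other cells were measured too. In the authors' deposited table for Pc, 11 of 16 muscle, 5 of 8 fat body, 2 of 12 haemocyte, 2 of 9 glia, 3 of 9 brain neuron, 3 of 8 germline and 0 of 11 salivary gland and gut markers were lower and none of these higher, and of 5 trachea markers 1 was higher and 1 lower. Of all genes tested for Pc, 6.24% were lower and 3.64% higher. In the authors' deposited table for ph, 9 of 16 muscle, 0 of 8 fat body, 12 of 12 haemocyte, 5 of 9 glia, 7 of 9 brain neuron, 4 of 8 germline, 2 of 4 salivary gland and gut and 4 of 5 trachea markers were lower, where 34.9% of all genes were lower and 31.1% higher. Higher in that table were 4 glia markers and 1 marker each of muscle, germline, salivary gland and gut, and trachea.

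In Pc mutant discs, the nearest genes were called more often than genes at large, and more often higher than lower. Of 239 nearest genes, 169 had an adjusted p in the authors' deposited table for Pc, and 39 of them (23.1%) were called at an adjusted p under 0.05, against 9.88% of all 11297 genes tested. They were 25 called higher (14.8%, against 3.64% of all genes) and 14 called lower (8.28%, against 6.24% of all genes). The split depended on the replicate: by peaks of the replicate 1 lists 17 were higher and 4 lower, and by peaks of the replicate 2 lists 16 were higher and 16 lower. The median log2 fold change was 0.02 both over the nearest genes and over all genes. Nearest genes of Su(z)12 peaks with PSC were called for 131 of 863 (15.2%), 67 higher and 64 lower. Where the mean count reached 50 or more, 38 of 145 nearest genes (26.2%) were called, against 11.6% of all such genes. The 2 kinds of peak share 125 nearest genes, so these shares are not independent, and no test of their difference was made. Of these 125 genes 89 were tested, and 27 (30.3%) were called, 20 higher and 7 lower. Of the 80 tested nearest genes that were not nearest to a Su(z)12 peak with PSC, 12 (15.0%) were called. These were 5 higher and 7 lower, so the excess of higher calls lay in the shared genes.

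For Pc, the called share went with the presence of PSC nearby. Nearest genes of peaks within 10000 bp of PSC were called for 33 of 119 (27.7%), 23 higher and 10 lower, in the authors' deposited table for Pc. Those of peaks farther away were called for 6 of 55 (10.9%), 2 higher and 4 lower, near the background of 9.88%. A gene with peaks both within and beyond 10000 bp counted in both groups. Genes with a PSC peak in the gene or the 1000 bp around it were called for 34 of 109 (31.2%), and those without for 5 of 60 (8.33%). Outside the Hox complexes 33 of 159 (20.8%) were called, so the calls were not confined to them. Of 14 tested genes with at least 4 peaks each, 9 were called, all higher, and 6 of these were Hox genes.

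In ph RNAi discs most genes were called, and the nearest genes more often still. In the authors' deposited table for ph, 143 of 165 tested nearest genes (86.7%) were called, against 66% of all 11009 genes. There were 53 higher (32.1%, against 31.1% of all genes) and 90 lower (54.5%, against 34.9% of all genes), and the median was −0.25, against −0.06 over all genes. Nearest genes of Su(z)12 peaks with PSC were called for 693 of 865 (80.1%), 295 higher and 398 lower. The nearest genes had higher mean counts, with a median of 1172, against 616 over all genes. Where the mean count reached 50 or more, 92.6% of the nearest genes and 80.5% of all genes were called.

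The lower calls were most frequent at the peaks far from PSC. Of 54 tested nearest genes of peaks more than 10000 bp from PSC, 39 (72.2%) were lower and 8 (14.8%) higher in the authors' deposited table for ph, with a median of −0.73. Of 116 tested nearest genes of peaks within 10000 bp of PSC, 56 (48.3%) were lower and 45 (38.8%) higher, with a median of −0.21. Calls in either direction were equally frequent, at 47 of 54 far (87.0%) and 101 of 116 near (87.1%). They were 86.2% of genes with a PSC peak in the gene or the 1000 bp around it and 87.5% of those without. Several gene lists were also mostly lower in that table, among them those of haemocytes, brain neurons, photoreceptor and cone cells and retinal determination. Glia markers were split, with 5 of 9 lower and 4 higher, and no fat body marker was called lower. No haemocyte, brain neuron or retinal determination gene was nearest to a peak without PSC. Of the photoreceptor and cone cell genes 3 were (salm, salr and sv), all 3 called lower for ph. The part of cell types in the difference in lower calls was not tested.

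**Figure D4:**
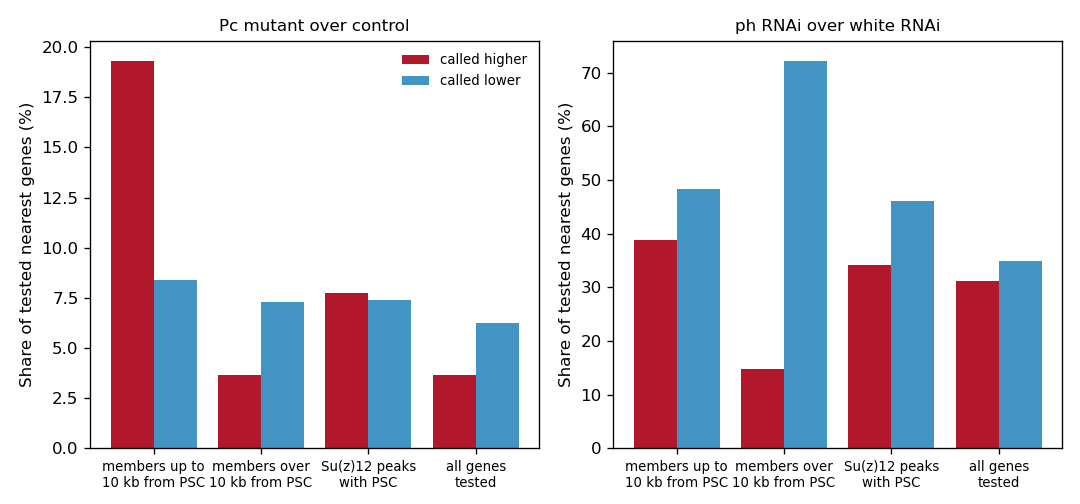
Share of tested nearest genes (%) called higher (red) or lower (blue) at an adjusted p under 0.05 in the authors' deposited tables, for peaks without PSC up to and over 10000 bp from PSC, for Su(z)12 peaks with PSC, and for all genes tested. In the Pc mutant the near group has 19.3% higher; under ph RNAi the far group has 72.2% lower.

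The Hox genes were the clearest group. Of 8 Hox genes, 7 were nearest to a peak without PSC, with 91 peaks between them, and lab was not. In Pc mutant discs 6 of these 7 rose and in ph RNAi discs the same 6 rose. Among all genes tested, 3.64% were called higher for Pc and 31.1% for ph. Abd-B, which specifies the posterior abdomen, rose by 7.80 ± 0.38 in the authors' deposited table for Pc (adjusted p = 8.35e-92) and by 8.99 ± 0.16 in that for ph. Ubx, the gene of the haltere segment, rose by 5.97 ± 0.43 in the authors' deposited table for Pc and by 5.44 ± 0.20 in that for ph. The abdominal gene abd-A rose by 5.78 ± 0.53 for Pc and by 7.82 ± 0.69 for ph in the authors' deposited tables. The thoracic genes Antp and Scr rose by 3.60 ± 0.47 and 2.40 ± 0.40 for Pc, and by 5.22 ± 0.94 and 2.49 ± 0.44 for ph, in the authors' deposited tables. The mouthpart gene pb rose by 2.53 ± 0.40 for Pc and by 4.62 ± 0.22 for ph in the authors' deposited tables.

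Dfd, a Hox gene of the head, was the exception. It had 9 peaks without PSC and 5 Su(z)12 peaks with PSC, yet its value was −0.27 ± 0.15 in the authors' deposited table for Pc (adjusted p = 0.348). It fell by 0.24 ± 0.06 in the authors' deposited table for ph (adjusted p = 4.63e-05). Scr, with the same number of peaks without PSC, rose in both tables. The non-coding genes of the same complexes, among them lncRNA:iab8 and lncRNA:bxd, were untested in both tables, as were 68 of the 239 nearest genes, which were nearest to 183 peaks.

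Of the 10 largest increases for Pc among nearest genes whose mean count reached 50, 4 were Hox genes and 6 were Sox15, CG15269, cad, Kr, tey and rib. Sox15, an HMG-box gene (2R, 14201390 to 14212413), rose by 6.60 ± 0.50 in the authors' deposited table for Pc and by 6.39 ± 0.40 in that for ph. It held 1 peak without PSC at 279 bp from PSC, with a fold of 1.95, found in neither replicate list, and it was also the nearest gene of 6 Su(z)12 peaks with PSC. The posterior homeobox gene cad rose by 5.31 ± 0.83 for Pc and by 9.77 ± 0.41 for ph in the authors' deposited tables. Its 2 peaks without PSC (folds 1.96 and 1.90) were in neither replicate list.

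The gap gene Kr rose by 3.96 ± 0.42 for Pc and by 4.02 ± 0.82 for ph in the authors' deposited tables. Its 2 peaks without PSC (folds 1.73 and 1.66) lay 1534 and 1543 bp from PSC, in the run near the end of 2R, and were in neither replicate list. The zinc-finger gene tey rose by 3.85 ± 0.55 for Pc and by 4.85 ± 0.33 for ph, and CG15269 by 5.66 ± 0.97 for Pc and by 7.29 ± 0.35 for ph, in the authors' deposited tables. Each had 1 peak without PSC in both replicate lists. The BTB-domain gene rib, which acts in the shaping of epithelial tubes, had 4 such peaks, 2 of them in both replicates. It rose by 3.28 ± 0.52 for Pc and by 2.49 ± 0.53 for ph in the authors' deposited tables. The homeobox gene HGTX had 6 such peaks, 1 of them in both replicates (3L, 14577265 to 14577951, fold 2.46). It rose by 2.02 ± 0.47 for Pc and by 5.62 ± 0.69 for ph in the authors' deposited tables.

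**Figure D5:**
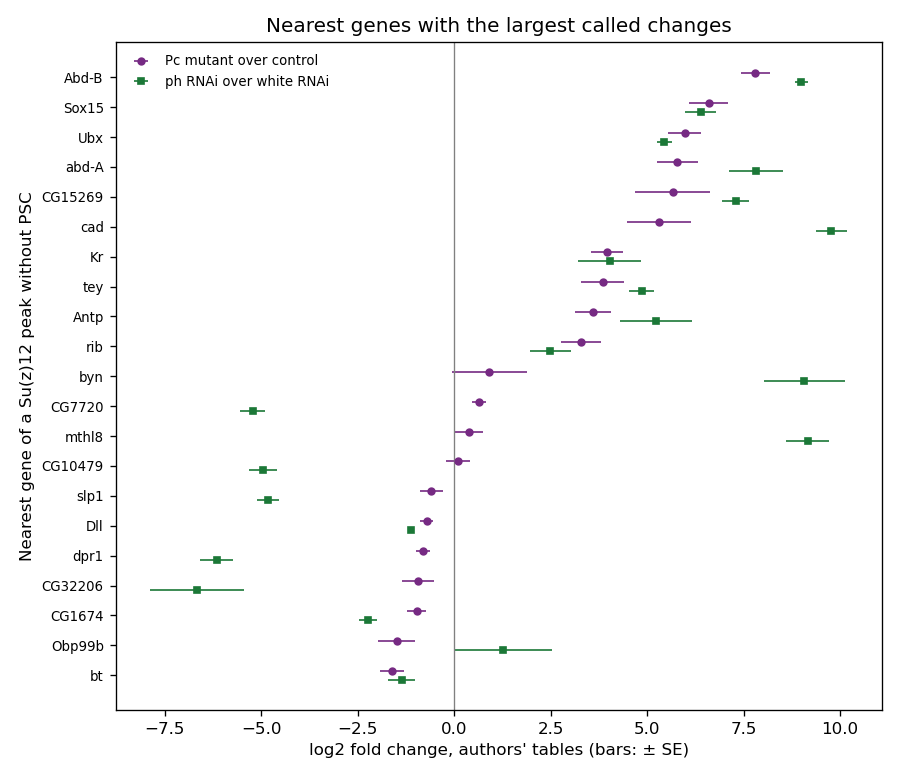
log2 fold change ± SE in the authors' deposited tables for nearest genes of Su(z)12 peaks without PSC with the largest called changes, for the Pc mutant over its control (purple circles) and ph RNAi over white RNAi (green squares). Genes are ordered by the value for Pc; Abd-B is at 7.80 for Pc and 8.99 for ph, while dpr1 is at −0.81 and −6.15.

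Increases under ph RNAi also included genes with no call in the Pc mutant. The receptor gene mthl8 rose by 9.16 ± 0.55 and the hindgut T-box gene byn by 9.07 ± 1.04 in the authors' deposited table for ph. Neither passed the test for Pc, at 0.38 ± 0.37 and 0.91 ± 0.97 in the authors' deposited table (adjusted p = 0.702 and 0.742). The difference between the tables was not tested.

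The leading decreases in the Pc mutant were smaller than the leading increases. The largest among nearest genes whose mean count reached 50 was that of bt, which encodes the muscle protein projectin, at −1.61 ± 0.31 in the authors' deposited table for Pc. It was followed by the odorant-binding protein gene Obp99b (−1.50 ± 0.47), CG1674 (−0.98 ± 0.26), the immunoglobulin-domain gene dpr1 (−0.81 ± 0.19) and the limb gene Dll (−0.72 ± 0.17) in the authors' deposited table for Pc. TpnC41C, at a mean count of 14.6, fell by 2.93 ± 0.72 there (adjusted p = 0.00127). Both bt and TpnC41C are muscle genes, and 11 of the 16 muscle markers were lower in that table, and the part of muscle cells in these 2 values was not tested. None of the peaks at the first 5 genes was in both replicate lists, while the peak at TpnC41C was.

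The leading decreases under ph RNAi in the authors' deposited table for ph were those of CG32206 (−6.66 ± 1.22), dpr1 (−6.15 ± 0.43), CG7720 (−5.22 ± 0.33), CG10479 (−4.95 ± 0.37) and the forkhead gene slp1 (−4.83 ± 0.29). CG32206, CG7720 and CG10479 lay at peaks 55065, 17322 and 16016 bp from PSC. No PSC peak was found in these 3 genes or the 1000 bp around them. The peak at CG10479 was in both replicate lists, that at CG32206 in 1 and that at CG7720 in neither. The peaks at dpr1 and slp1 lay 313 and 172 bp from PSC, with 1 and 5 PSC peaks in the gene or that margin. CG7720 was called higher in the Pc mutant, at 0.64 ± 0.19 in the authors' deposited table for Pc (adjusted p = 0.0111). Glut1, with the strong isolated peak described above, fell by 4.46 ± 0.30 in the authors' deposited table for ph, while its value of −0.23 ± 0.10 for Pc did not pass the test (adjusted p = 0.19).

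The genes at the strongest peaks gave mixed calls. The value of vsg was 0.03 ± 0.19 in the authors' deposited table for Pc (adjusted p = 0.978), and it fell by 0.43 ± 0.09 in that for ph. Klp31E was not called for Pc (0.14 ± 0.11) and rose by 0.20 ± 0.07 for ph in the authors' deposited tables. IA-2 was not called for Pc (−0.92 ± 0.48, adjusted p = 0.29) and fell by 1.06 ± 0.30 for ph in the authors' deposited tables. CG8745 was called in neither of the authors' deposited tables (adjusted p = 0.534 for Pc and 0.371 for ph). CG9380, with 21 peaks, had 0.13 ± 0.18 for Pc and fell by 0.37 ± 0.13 for ph in the authors' deposited tables, with adjusted p = 0.84 for Pc.

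Of 163 nearest genes tested in both of the authors' deposited tables, 18 (11.0%) were higher in both, against 1.6% of the 10581 genes tested in both. Another 11 (6.75%) were lower in both, against 4.64% of all. For Pc higher and ph lower the count was 6 (3.68%, against 1.36% of all), and for Pc lower and ph higher it was 1 (0.613%, against 0.463% of all). No source used here says whether the comparisons share control libraries. The POU gene pdm2, of neuroblast identity, was among those of mixed sign, at 2.04 ± 0.60 for Pc and −3.76 ± 0.90 for ph in the authors' deposited tables. The homeobox gene Dr was another, at 1.96 ± 0.36 for Pc and −1.03 ± 0.16 for ph in the authors' deposited tables. The cell death gene hid, at a peak 17927 bp from PSC in both replicate lists, had 0.66 ± 0.18 for Pc and −0.94 ± 0.06 for ph in the authors' deposited tables.

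Other lists met few of the peaks. Of all genes tested, 3.64% were called higher and 6.24% lower for Pc, and 31.1% higher and 34.9% lower for ph. Of 25 segmentation factors, 5 were nearest to a peak without PSC (Kr, ftz, odd, slp1 and en). Of these 5, 2 rose and none fell for Pc, and 2 rose and 2 fell for ph, in the authors' deposited tables. Of the 24 measured genes of the list 6 rose and 4 fell for Pc, and 9 rose and 11 fell for ph. The segment polarity gene en, with 1 of its 2 peaks in both replicates, rose by 0.60 ± 0.19 for Pc and by 0.78 ± 0.08 for ph in the authors' deposited tables. Of 27 appendage and antennal genes, 3 were nearest (Dll, nub and Lim1), with 1 rising and 1 falling for Pc, and 1 rising and 2 falling for ph, in the authors' deposited tables. Of all 27 appendage and antennal genes 6 rose and 6 fell for Pc, and 7 rose and 18 fell for ph. The wing gene nub rose by 2.31 ± 0.33 for Pc and by 2.74 ± 0.21 for ph in the authors' deposited tables. With pdm2 and Dr, nub also made up the 3 nearest of 19 nervous system factors, all 3 higher for Pc, and 1 higher and 2 lower for ph. Of the 18 measured factors of that list 4 were higher and 2 lower for Pc, and 4 higher and 12 lower for ph.

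Of 18 photoreceptor and cone cell genes, 3 were nearest, and all 3 fell for ph, where 34.9% of all genes were called lower. The zinc-finger gene salm fell by 0.49 ± 0.09 for Pc and by 1.57 ± 0.12 for ph in the authors' deposited tables. Its relative salr was not called for Pc (−0.27 ± 0.11) and fell by 0.21 ± 0.09 for ph in the authors' deposited tables. The cone cell gene sv was not called for Pc (−0.33 ± 0.17) and fell by 3.18 ± 0.11 for ph in the authors' deposited tables. In the whole list 13 of 18 genes were lower for Pc and 18 of 18 for ph, with list medians of −0.83 for Pc and −3.94 for ph. Of the 3 nearest genes 1 was lower for Pc and 3 for ph.

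The 3 nearest of 16 muscle markers were bt, Mef2 and twi. The muscle regulator Mef2 was called in neither of the authors' deposited tables (0.10 ± 0.19 for Pc and 0.09 ± 0.09 for ph). The mesoderm gene twi was not called for Pc (0.02 ± 0.27) and fell by 0.91 ± 0.22 for ph in the authors' deposited tables. The tracheal gene trh rose by 1.58 ± 0.36 for Pc and by 4.77 ± 0.21 for ph in the authors' deposited tables. Of 12 trithorax group genes 1 was nearest, fs(1)h, which encodes a bromodomain protein, with −0.07 ± 0.17 for Pc and a rise of 0.16 ± 0.04 for ph in the authors' deposited tables. None of the 7 PRC1 genes, 11 PRC2 and PhoRC genes, 10 genes of factors that bind Polycomb response elements, 12 retinal determination genes or 19 signalling genes was nearest to a peak without PSC, and neither was any marker of fat body, haemocytes, glia, brain neurons, salivary gland and gut, or germline.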

How the data were processed

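ChIP-seq of Su(z)12 and PSC and RNA-seq of Pc mutant, ph RNAi and white RNAi eye discs were used, with all other samples not analysed here. The build was dm6 and the tools included, per the submitters' processing notes, Bowtie2, SAMtools, MACS2 2.1.1.20160309, STAR, HTSeq and DESeq2 1.22.1, with no settings. The authors deposited peak lists in the MACS2 format per replicate and merged over all replicates. The sources used here do not say whether reads or peaks were merged, or which library was the control. The score, the fold (a ratio over local background) and the −log10 p and q of each peak are the authors' deposited values. The smallest −log10 q in the deposited lists was 3.00. The deposited expression tables give, per the file headers, the authors' log2 fold change, its standard error, and a raw and an adjusted p-value. They also give the authors' mean normalized count, a signal averaged over libraries, so depth per sample is unknown. Libraries were stranded per the labels' protocols, and no source used here gives the strand setting of counting.

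Peaks on 6 arms were compared with an overlap of at least 1 bp, and summits were placed against 17684 genes of the Release 6 annotation, the assembly on which dm6 is based, with Python 3.11.15 and pandas 2.3.3. The interval code was tested on simulated intervals. Coordinates are 1-based. A gene was called where the adjusted p was under 0.05, and no new test was computed. Shares have exact Clopper-Pearson intervals where given. Named are the nearest genes of the 10 strongest peaks, the 10 genes with most peaks, the largest called changes (mean count of at least 50, or called in both tables) and genes of 19 lists. Some others (Myo81F, beat-Ia, CG40006, HGTX, pb, hid and genes of runs) were chosen after their values were seen. The members and lists were chosen with earlier results of these data known. Alternatives were single replicates, both replicates, other overlaps, a −log10 q of at least 5, protein-coding genes only, a nearest gene within 1000 bp, a minimum fold change, a minimum mean count, centring, and leaving out the Hox complexes.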

Additional observations from a re-analysis of the deposited data

How the results depend on the processing

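Of 33 alternative settings, 21 stayed within 1.5 times the count or within the interval of the share. The number of Su(z)12 peaks without PSC ran from 270 to 378 when 1 replicate was left out (lists of the other replicate) and was 88 for peaks in both replicate lists. The share with the summit inside a gene ran from 57.1% to 63.7% when 1 replicate was left out, and was 67.0% for peaks in both replicates, 51.7% with protein-coding genes only and 44.3% outside the Hox complexes, a setting chosen after seeing the data. Nearest genes called for Pc were 32 of 132 tested (24.2%) without replicate 1 and 21 of 95 (22.1%) without replicate 2. They were 13 of 36 (36.1%) for peaks in both replicates, against 9.88% of all genes. At an absolute log2 fold change of at least 1 they were 22 (13.0%, against 3.93% of all genes). Of those 13, 11 were higher and 2 lower, and of those 22, 19 were higher and 3 lower. Outside the 33 settings, nearest genes of peaks in neither replicate list were called for 31 of 112 (27.7%) for Pc, 23 higher and 8 lower. A gene with peaks of both kinds counted both there and among the peaks in both replicates. For ph the nearest genes called were 113 of 132 (85.6%) without replicate 1 and 81 of 93 (87.1%) without replicate 2. They were 33 of 37 (89.2%) for peaks in both replicates, against 66% of all genes, and 77 (46.7%, against 24.5% of all genes) at that fold change. In each of these settings the called share stayed above that of all genes. Centring on the median of all genes left 39 calls for Pc and 136 for ph. The cause of these shifts was not tested. No paired analysis was possible because the peak comparisons rest on no test and the expression tables hold no values per replicate. The lists rest on 2 replicates that shared few of these peaks, and depth per sample is unknown.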
